A study of Mus musculus with 34 samples.

Results

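The mitosis genes described here are 45 genes chosen by their function in cell division, out of 37583 genes in the files, and all 45 were found by symbol. They fall into 5 roles: 12 encode CDK1, its cyclins and the mitotic kinases, 8 the spindle checkpoint and the machinery of anaphase, 7 proteins of the centromere and kinetochore, 12 spindle motors and proteins of the midzone and cytokinesis, and 6 proteins that shape chromosomes. The study compared livers labelled knockout (KO) with livers labelled wild type (WT) for Setd8 (Kmt5a or PR-Set7), the enzyme that places a single methyl group on lysine 20 of histone H4. The KO genotype is given as Setd8lox/lox-Alb-Cre, in which Cre, driven by the albumin promoter, deletes floxed exon 7 in hepatocytes, while other liver cells keep the gene. All animals were F1 mice of C57Bl6 and CBA at 45 days of age, fed standard chow. Poly(A) RNA was sequenced in 3 KO and 3 WT libraries. Newly made RNA was sequenced in 1 KO and 1 WT library by each of 2 methods. In the first, ethynyl uridine (EU, 25 mg per kg) was injected 30 min before the animals were killed and labelled nuclear RNA was captured. In the second, isolated nuclei took up bromouridine (Br) during a run-on of 3 min. Nothing in the labels says that the numbered mRNA replicates came from different animals, and p-values refer to the spread of the libraries, a spread that may be technical.

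Entry into mitosis is driven by CDK1 bound to cyclin A or cyclin B, and by the Polo and Aurora kinases. The spindle checkpoint holds the anaphase-promoting complex in check until each kinetochore is attached to microtubules, after which securin and cyclin B are destroyed and sister chromatids part. Most of these genes are transcribed late in the cell cycle, through promoter elements known as CHR and CCAAT boxes and through the factors B-MYB and FOXM1. In the adult liver most hepatocytes are quiescent and these mRNAs are scarce, and they are known to come up together when hepatocytes divide, as after partial hepatectomy.

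The mRNA values are read counts that the authors scaled between libraries and rounded, called scaled values below. A library held 18069344, 18387213 and 20102731 in the KO group, and 20066093, 20480357 and 25820906 in the WT group, summed over all genes. WT replicate 3 had 20077 genes above 0, fewer than any other library (24497 to 26247), and lay apart on the first principal component. Setd8 itself had scaled values of 1199, 1040 and 1075 in KO libraries, against 593, 615 and 1076 in WT libraries. It was thus not lower in the KO group (log2 difference 0.59, SE 0.25, limma adjusted p = 0.244), and without WT replicate 3 it was called higher (limma adjusted p = 0.0206). The loss of 1 exon is tested only in part by a value over the whole gene, so the groups are named by their labels and every direction below is that of the libraries labelled KO. The 9 hepatocyte markers, albumin among them, summed to between 1895348 and 2109067 in KO and between 1899530 and 3133312 in WT libraries, so that the defining mRNAs of hepatocytes were abundant in every library.

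The mitosis genes had more mRNA in the KO livers, and by far the most in KO replicates 1 and 2. Summed over the 45 genes, the scaled values were 9719, 9305 and 3762 in KO replicates 1 to 3, against 2476, 1936 and 1628 in WT replicates 1 to 3. Relative to each library's total, in ppm, that is 538, 506 and 187 in KO, against 123, 94.5 and 63.05 in WT. Every KO sum exceeded every WT sum, and KO replicate 3 lay nearer to the WT libraries than to the other KO libraries. Ccnf alone held 1081 of the sum in KO replicate 3. Without it, the other 44 members summed to 9050, 8541 and 2681 in KO, against 2300, 1749 and 1471 in WT. For these 44, KO replicate 3 was thus only little above WT replicate 1. In bulk tissue, more cells in division and more mRNA in each such cell cannot be told apart. All 45 genes passed the filter on low values (at least 10 in at least 3 libraries), with Melk and Ttk under 10 in every WT library. Melk and Ttk could pass only with at least 10 in every KO library, which fixed in advance that every KO value exceeds every WT value. Differences were tested with limma on the log2 scale, after 1 was added to each scaled value, over 16813 genes. A gene was called where its p, adjusted by Benjamini-Hochberg over all of them, was under 0.05.

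Of the 45 genes, 5 were called higher in KO (Cdk1, Ccna2, Ccnf, Aurka and Prc1) and 0 lower, where 1.35% of all genes tested were called higher and 1.36% lower. The other 40 were not called, although 34 members had an unadjusted limma p under 0.05 on the higher side, against 10.2% of all genes. The fitted difference on the log2 scale was above 0 for all 45 (50.2% of all genes), and at least 2-fold for 40 (8.34% of all genes). For 1 of the 45, Cdc25c, the mean of the scaled values themselves was lower in KO. The median log2 fold change of the 45 was 1.99, against 0.0023 over all genes tested. For 27 members the lowest KO library was above the highest WT library (13.2% of all genes), and for 0 members the reverse held (12.8%). The 27 include Melk and Ttk, for which the filter fixed this outcome. Both are also among the 45, the 40 and the 34 above, and the filter fixed the sign of their difference. The remaining 18 overlapped between the groups. KO replicate 3 was the lowest of the KO libraries for 44 of 45 members, against 32.7% of all genes.

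**Figure D1:**
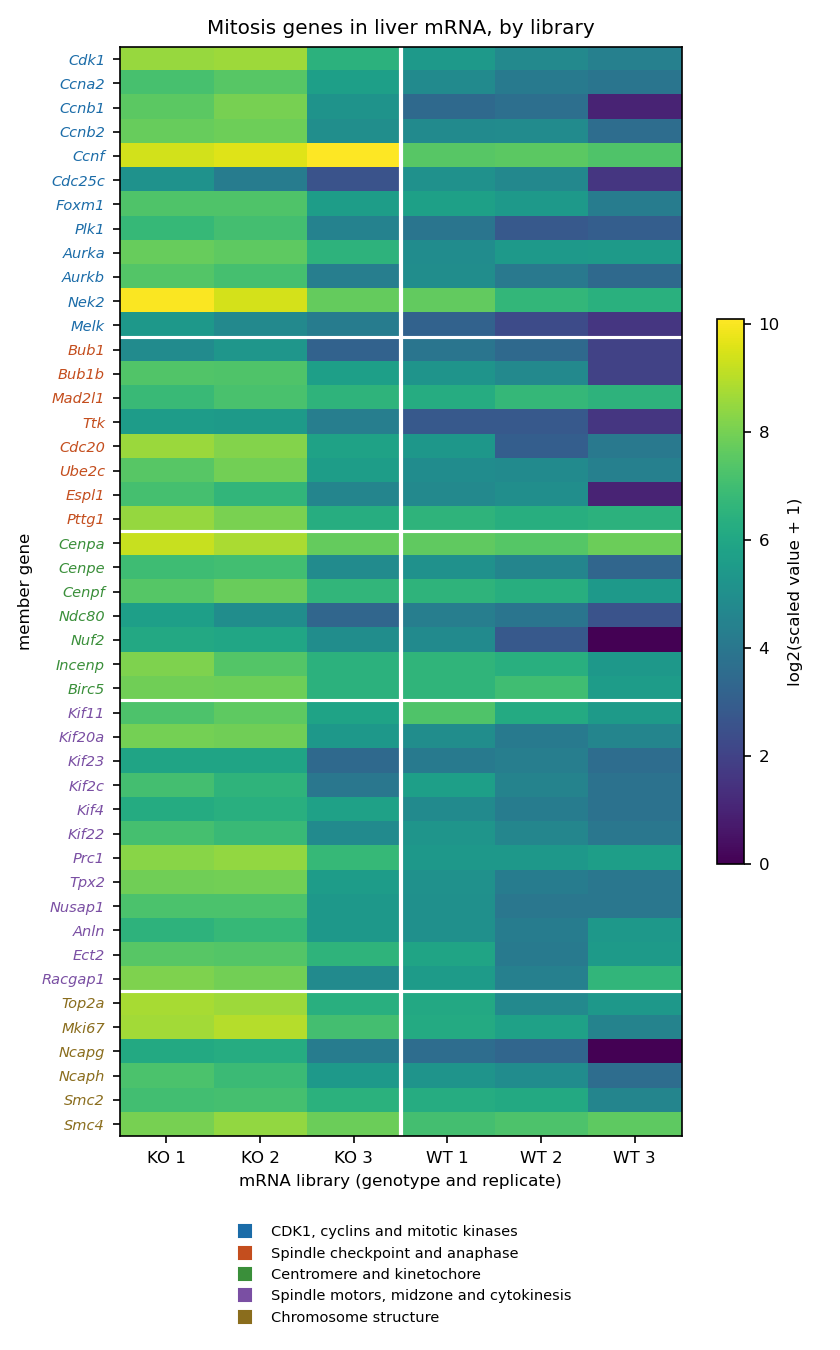
Scaled mRNA values of the 45 mitosis genes, as log2 of the value plus 1 (colour), with a row per gene in the order of the 5 roles (label colour) and a column per library, KO left of WT. KO replicates 1 and 2 are both brighter than every WT library for 43 genes, KO replicate 3 is the dimmest KO library for 44, and Ccnf is the exception, brightest in KO replicate 3.

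Among CDK1, the cyclins and the mitotic kinases, 4 of 12 members were called higher, 9 had no overlap between groups, and the median log2 fold change was 2.33. Cdk1, the kinase that drives cells into mitosis, had scaled values of 370, 383 and 89 in KO libraries, against 42, 26 and 20 in WT libraries. The lowest KO value was more than the highest WT value, and KO replicate 3 lay far under the other KO libraries. The fitted difference was 8.07-fold (log2 3.01, SE 0.58, limma adjusted p = 0.0393), and with a library left out it ran from 6.30-fold to 13.0-fold. Ccna2 encodes cyclin A2, a partner of CDK2 in S phase and of CDK1 at the entry into mitosis. It had 139, 176 and 51 in KO libraries, against 27, 17 and 14 in WT libraries, a 5.54-fold difference (log2 2.47, SE 0.51, limma adjusted p = 0.0491), again with no overlap and with KO replicate 3 lowest among the KO libraries. Aurka, the kinase that matures centrosomes and builds the spindle poles, had 212, 188 and 91 in KO libraries, against 29, 43 and 44 in WT libraries (log2 1.99, SE 0.39, limma adjusted p = 0.0401).

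Ccnf behaved unlike the other 44 members among the KO libraries. It encodes cyclin F, a substrate receptor of an SCF ubiquitin ligase that limits centrosome duplication and does not activate a CDK. Its values were 669, 764 and 1081 in KO libraries, against 176, 187 and 157 in WT libraries. KO replicate 3, lowest for every other member, was the highest here, and the WT libraries lay close together. The difference was 4.72-fold (log2 2.24, SE 0.23, limma adjusted p = 0.00674), and Ccnf was called with any 1 library left out, as no other member was. The calls of Cdk1, Ccna2, Aurka and Prc1 were lost without KO replicate 1, KO replicate 2, WT replicate 1 or WT replicate 2.

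**Figure D2:**
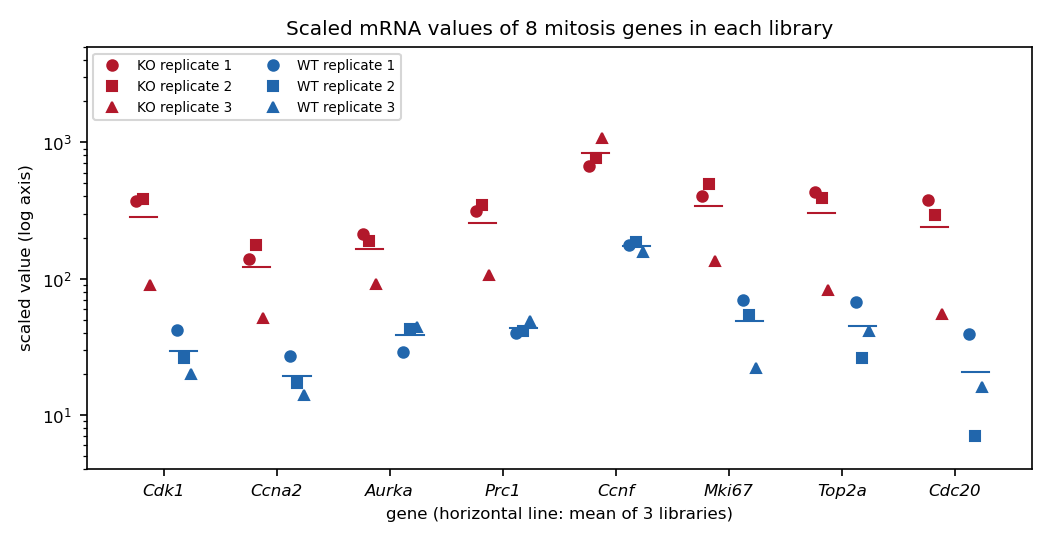
Scaled mRNA values (log axis) of 8 mitosis genes in each library, KO in red left of WT in blue, with marker shape for the replicate and a line at each group's mean. KO replicate 3 (red triangle) is the lowest KO library for 7 of the genes and the highest for Ccnf, at 1081.

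The B-type cyclins, which give CDK1 its activity in mitosis, were scarce in WT. Ccnb1 had 185, 256 and 35 in KO libraries, against 10, 12 and 1 in WT libraries, the largest fitted difference among the members (log2 4.18, SE 0.93) without a call (limma adjusted p = 0.0563). Without WT replicate 3, which held the value of 1, its log2 fold change was 3.33 and it was called. Ccnb2 had 213, 229 and 31 in KO libraries, against 27, 28 and 11 in WT libraries, so that KO replicate 3 lay only just above WT. Plk1, the Polo kinase needed for centrosome maturation and cytokinesis, had 108, 134 and 21 in KO libraries, against 14, 6 and 7 in WT libraries. Nek2, a kinase that separates centrosomes, had the highest level per kilobase of exon of all members in KO, with scaled values of 1032, 684 and 208 in KO libraries, against 202, 100 and 84 in WT libraries (log2 2.14, SE 0.58, limma adjusted p = 0.0945). For neither gene did the groups overlap.

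Aurkb, the kinase of the chromosomal passenger complex, had 164, 136 and 19 in KO libraries, against 30, 16 and 10 in WT libraries, with KO replicate 3 inside the WT range. Foxm1, the transcription factor that drives many late cell cycle genes, had 158, 157 and 48 in KO libraries, against 52, 42 and 18 in WT libraries, again with KO replicate 3 inside it. Melk, a kinase found in dividing cells, had 40, 26 and 18 in KO libraries, against 8, 4 and 2 in WT libraries. The filter on low values fixed the lack of overlap for Melk. Cdc25c, a phosphatase that activates CDK1, was the member with the smallest difference: 34, 18 and 5 in KO libraries, against 33, 25 and 2 in WT libraries (log2 0.20, SE 1.05). Its mean scaled value was 19 ± 14.5 in KO and 20 ± 16.1 in WT (SD, n = 3 each), so that the sign of its difference depended on the scale. Its groups overlapped, and without WT replicate 3 its log2 difference turned to -0.91.

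Promoters of the members were taken from RefSeq (build GRCm38.p6, 250 bases before to 50 after the start of transcription), which held 37 of the 45. Those of Ccna2, Cdc25c, Foxm1, Aurkb, Incenp, Kif20a, Tpx2 and Smc4 were not used here. Both strands were searched for the CHR, written as TTTGAA or TTCGAA, and for CCAAT (motifs that can share bases). A member counted once, if any of its starts held the motif, whereas the promoters of the table were counted singly. A CHR was found in 27 of 37 members (73.0%), against 19.2% of all 32851 promoters in the table. Counted singly, 29 of 39 member promoters held one (74.4%). CCAAT was found in 27 of 37 (73.0%), against 37.4% of all promoters. Both stood in 24 of 37 (64.9%), against 7.5% of all promoters. Members whose window held a CHR had a median log2 fold change of 1.99 (27 genes), and those without one of 2.04 (10 genes). The 24 members with both motifs had a median of 2.27, and 17 of them had no overlap between the groups, while the 3 with a CHR and no CCAAT had a median of 1.20 and overlapped. The differences between these sets were not tested. The core of an E2F site (TTCCCGC, with the variants TTGGCGC and also TTCGCGC and further TTGCCGC) was in 16.2% of the members and 9.6% of all promoters, and TTTAAA in 24.3% and 13.2%. A match describes the letters of these windows and shows no binding.

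The promoters of the called members in the table, and that of Pttg1 as a member whose window held neither motif, are shown 5′ to 3′ along the gene's strand. They are in lower case, with each CHR and each CCAAT, on either strand, in capitals. The Pttg1 window lies wholly within the gene as annotated in GENCODE M21, whose 5′ end is at chr11:43426251. Bases before that end were not searched, so the lack of motifs holds for this window only.
Cdk1 promoter, chr10:69352863-69353162, minus strand: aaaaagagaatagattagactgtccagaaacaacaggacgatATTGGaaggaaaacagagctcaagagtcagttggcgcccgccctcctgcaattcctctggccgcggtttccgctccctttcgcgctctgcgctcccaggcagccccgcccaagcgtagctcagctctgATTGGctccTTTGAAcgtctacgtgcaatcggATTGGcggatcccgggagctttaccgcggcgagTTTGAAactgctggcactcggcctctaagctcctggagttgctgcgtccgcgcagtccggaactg
Aurka promoter, chr2:172370521-172370820, minus strand: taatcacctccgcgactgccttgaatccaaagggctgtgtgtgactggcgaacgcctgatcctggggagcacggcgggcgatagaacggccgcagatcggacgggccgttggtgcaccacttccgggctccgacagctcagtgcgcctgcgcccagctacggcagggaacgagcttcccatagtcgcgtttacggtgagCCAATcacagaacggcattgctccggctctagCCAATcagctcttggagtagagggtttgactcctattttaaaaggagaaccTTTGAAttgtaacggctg
Ccnf promoter, chr17:24251360-24251659, minus strand: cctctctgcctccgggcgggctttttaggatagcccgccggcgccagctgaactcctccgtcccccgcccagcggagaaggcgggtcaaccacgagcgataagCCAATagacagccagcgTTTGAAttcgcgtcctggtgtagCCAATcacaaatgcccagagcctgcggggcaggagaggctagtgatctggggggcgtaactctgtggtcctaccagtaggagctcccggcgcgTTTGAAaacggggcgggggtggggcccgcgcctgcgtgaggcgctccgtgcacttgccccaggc
Prc1 promoter, chr7:80294201-80294500, plus strand: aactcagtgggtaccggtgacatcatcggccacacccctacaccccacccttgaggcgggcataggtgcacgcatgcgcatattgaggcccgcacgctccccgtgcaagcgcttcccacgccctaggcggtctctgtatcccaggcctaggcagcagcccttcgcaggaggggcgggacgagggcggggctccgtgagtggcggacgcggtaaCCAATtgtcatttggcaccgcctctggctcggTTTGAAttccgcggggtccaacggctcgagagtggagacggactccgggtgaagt
Pttg1 promoter, chr11:43425932-43426231, minus strand: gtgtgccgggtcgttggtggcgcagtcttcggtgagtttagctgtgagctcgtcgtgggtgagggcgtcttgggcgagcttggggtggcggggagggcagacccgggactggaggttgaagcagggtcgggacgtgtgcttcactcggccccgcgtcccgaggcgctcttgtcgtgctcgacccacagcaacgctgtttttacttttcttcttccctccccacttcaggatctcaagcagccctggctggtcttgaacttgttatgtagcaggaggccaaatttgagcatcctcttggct
With the start of transcription as position 1, the Cdk1 window held a CHR at -71 and -15 and CCAAT boxes at -208, -80 and -48. The Ccnf window held a CHR at -130 and -14 and CCAAT boxes at -147 and -107, the same pair of motifs as Cdk1. Among the KO libraries, replicate 3 was the highest for Ccnf and the lowest for Cdk1. Any link of this order to the motifs was not tested. In Prc1 a CCAAT box at -37 preceded a CHR at -5, and in Aurka CCAAT boxes at -51 and -19 preceded a CHR at 33. In 25 of the 27 members with a CHR, a copy lay within 50 bases of a start of transcription.

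Of the 8 genes of the spindle checkpoint and anaphase, 0 were called, 4 had no overlap between groups, and the median log2 fold change was 2.41. Cdc20, the activator that turns on the anaphase-promoting complex, had 376, 291 and 55 in KO libraries, against 39, 7 and 16 in WT libraries. Its difference was 10.4-fold (log2 3.38, SE 0.81) and missed the threshold (limma adjusted p = 0.0680). KO replicate 3 was only little above WT replicate 1. Ube2c, the ubiquitin-conjugating enzyme of that complex, had 176, 245 and 48 in KO libraries, against 29, 27 and 20 in WT libraries. Bub1b, which encodes the checkpoint protein BUBR1, had 161, 157 and 50 in KO libraries, against 36, 26 and 3 in WT libraries. Ttk, the checkpoint kinase MPS1, had 47, 44 and 19 in KO libraries, against 6, 6 and 2 in WT libraries. These 4 genes had no overlap between the groups, which for Ttk was fixed by the filter on low values.

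The other 4 overlapped. Pttg1, which encodes securin, the inhibitor of separase, had 354, 265 and 76 in KO libraries, against 93, 78 and 87 in WT libraries (log2 1.16, SE 0.52, limma adjusted p = 0.266). KO replicate 3 was below every WT library for this gene, while KO replicates 1 and 2 were well above them. Pttg1 also had the highest level per kilobase of exon of all members in WT, at 43.0 scaled units, against 116 in KO. Espl1, separase itself, had 135, 98 and 23 in KO libraries, against 26, 31 and 1 in WT libraries. Bub1, the checkpoint kinase, had 28, 38 and 8 in KO libraries, against 14, 10 and 3 in WT libraries. Mad2l1, the checkpoint protein that binds CDC20, differed little, with 112, 143 and 93 in KO libraries, against 75, 104 and 91 in WT libraries (log2 0.35, SE 0.28, limma adjusted p = 0.532).

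Of the 7 genes of the centromere and kinetochore, 0 were called and 2 had no overlap between groups, and the median log2 fold change was 1.17, the smallest of the 5 roles. Cenpa, the histone H3 variant that marks centromeres, had 603, 444 and 207 in KO libraries, against 196, 172 and 223 in WT libraries (log2 0.96, SE 0.37, limma adjusted p = 0.207). KO replicate 3 lay among the WT libraries and the other KO libraries above them. Incenp, the scaffold of the chromosomal passenger complex, had 276, 165 and 87 in KO libraries, against 95, 82 and 41 in WT libraries (limma adjusted p = 0.215). Birc5, which encodes survivin of the same complex, had 234, 229 and 89 in KO libraries, against 96, 127 and 46 in WT libraries (limma adjusted p = 0.297). For Incenp and Birc5 too, KO replicate 3 fell inside the WT range. Cenpf, a large protein of the outer kinetochore, had 172, 220 and 99 in KO libraries, against 94, 79 and 43 in WT libraries, without overlap. Nuf2, which with Ndc80 forms the NDC80 complex that grips microtubules, had 67, 62 and 30 in KO libraries, against 27, 6 and 0 in WT libraries, also without overlap. Ndc80 had 51, 30 and 9 in KO libraries, against 19, 14 and 5 in WT libraries, and Cenpe, a kinesin of the kinetochore, had 121, 131 and 28 in KO libraries, against 33, 23 and 9 in WT libraries.

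Of the 12 spindle motors and proteins of the midzone and cytokinesis, 1 was called, 6 had no overlap, and the median log2 fold change was 1.72. Prc1, which bundles the microtubules of the central spindle, had 312, 347 and 107 in KO libraries, against 40, 41 and 49 in WT libraries. The WT libraries were close together and KO replicate 3 was above them all. The difference was 5.15-fold (log2 2.36, SE 0.45, limma adjusted p = 0.0368). Kif4, the kinesin that works with PRC1 at the midzone, had 72, 81 and 53 in KO libraries, against 27, 18 and 13 in WT libraries, a more even rank of KO libraries than in most members (log2 1.81, SE 0.40, limma adjusted p = 0.0543). Kif20a, a kinesin of the midzone, had 253, 235 and 40 in KO libraries, against 30, 17 and 23 in WT libraries. Tpx2, which targets Aurora A to the spindle, had 236, 246 and 46 in KO libraries, against 33, 18 and 15 in WT libraries. Nusap1, which binds spindle microtubules, had 148, 148 and 41 in KO libraries, against 32, 15 and 15 in WT libraries. Ect2, the exchange factor that activates RhoA for the cleavage furrow, had 175, 166 and 94 in KO libraries, against 58, 17 and 44 in WT libraries. None of these 4 overlapped between groups and none was called.

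Racgap1, which in the centralspindlin complex recruits ECT2, had the widest gap between KO replicates 1 and 3 of all members, at 10.3-fold. It had 277, 246 and 27 in KO libraries, against 45, 20 and 99 in WT libraries, so that KO replicate 3 was under 2 of the WT libraries (log2 1.44, SE 0.92, limma adjusted p = 0.435). Kif11, the kinesin-5 that pushes spindle poles apart, had 154, 191 and 57 in KO libraries, against 156, 71 and 44 in WT libraries (log2 0.59, SE 0.57, limma adjusted p = 0.629). Its WT replicate 1 value was above KO replicate 1. Kif23, the kinesin of centralspindlin, had 58, 58 and 10 in KO libraries, against 17, 19 and 11 in WT libraries, with KO replicate 3 below all of WT. Kif2c, which depolymerises microtubules, had 134, 92 and 15 in KO libraries, against 50, 22 and 13 in WT libraries. Kif22, a kinesin of chromosome arms, had 137, 113 and 27 in KO libraries, against 37, 24 and 15 in WT libraries. Anln, the anillin scaffold of the cleavage furrow, had 90, 106 and 40 in KO libraries, against 32, 18 and 41 in WT libraries.

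**Figure D3:**
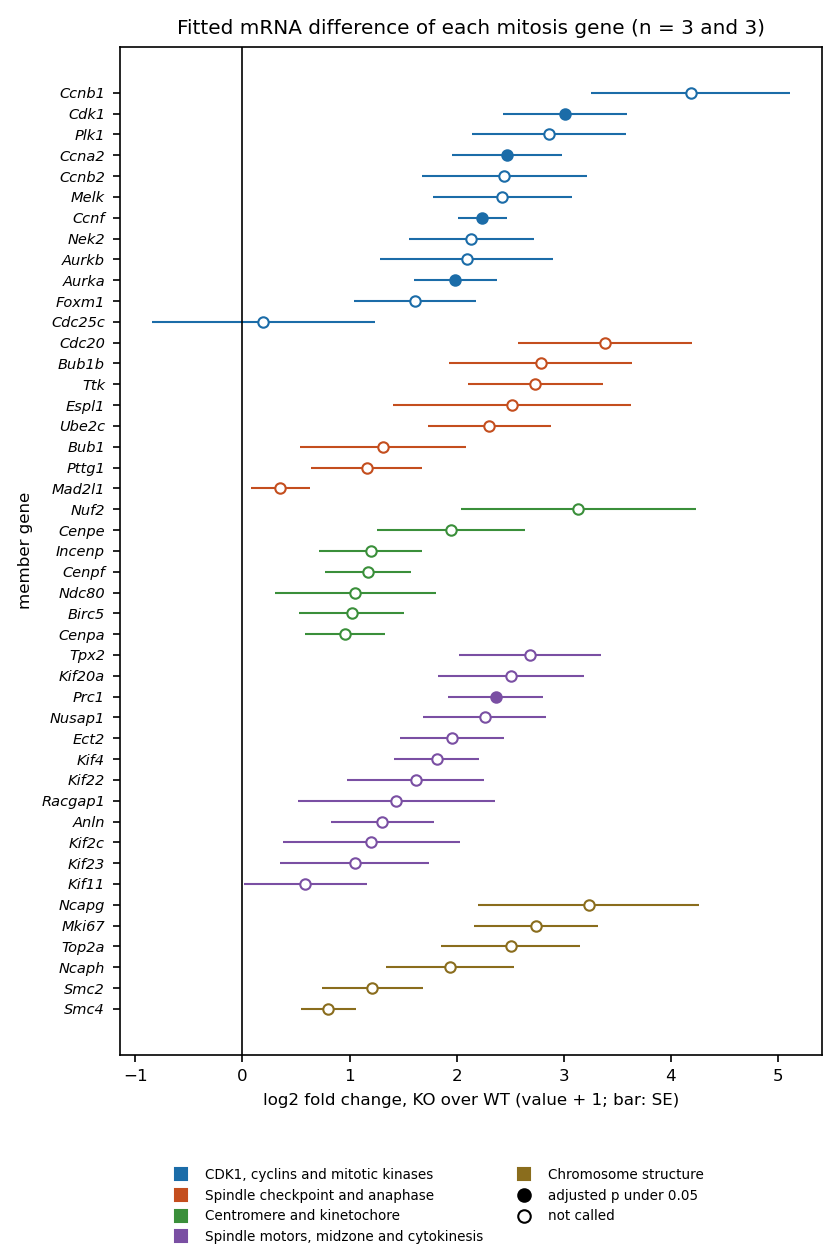
Log2 fold change of KO over WT for each member with its standard error, from limma on log2 of the scaled value plus 1 (3 KO and 3 WT libraries), sorted within each role. The 5 filled points are the called genes, all 45 points lie above 0, and Ccnf has the narrowest error, at an SE of 0.23.

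All 6 genes of chromosome structure had higher values in every KO library than in every WT library, and 0 of them were called. Their median log2 fold change was 2.22. Mki67, which encodes the Ki-67 protein that coats mitotic chromosomes and is used as a marker of dividing cells, had 405, 490 and 134 in KO libraries, against 70, 54 and 22 in WT libraries. Its difference was 6.69-fold (log2 2.74, SE 0.58) and lay just beyond the threshold (limma adjusted p = 0.0502). Top2a, the topoisomerase that untangles sister chromatids, had 430, 392 and 82 in KO libraries, against 67, 26 and 41 in WT libraries (log2 2.50, SE 0.65, limma adjusted p = 0.0806). Ncapg and Ncaph encode subunits of condensin I. Ncapg had 68, 75 and 18 in KO libraries, against 11, 9 and 0 in WT libraries, and Ncaph had 147, 117 and 42 in KO libraries, against 36, 29 and 11 in WT libraries. Smc2 and Smc4 form the ATPase core that both condensins share. Smc2 had 129, 138 and 86 in KO libraries, against 75, 68 and 23 in WT libraries. Smc4 had 257, 351 and 225 in KO libraries, against 132, 152 and 189 in WT libraries, a difference of 1.74-fold (log2 0.80, SE 0.25, limma adjusted p = 0.134).

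The KO libraries were not alike in these genes. Across the 45 members the median ratio of KO replicate 1 to KO replicate 3 was 3.50 and that of KO replicate 2 to KO replicate 3 was 3.45, against 1.00 and 0.988 over all genes tested. KO replicate 3 had a median ratio of 1.62 to the WT mean, while the mean of KO replicates 1 and 2 had one of 5.21. For 43 members KO replicates 1 and 2 were both above every WT library, against 19.0% of all genes. The 43 include Melk and Ttk, for which the filter on low values fixed this. For 18 members KO replicate 3 was within or below the WT range, against 74.5% of all genes. KO replicate 3 was also the shallowest library by the reads re-estimated from the rounding of the values, at 15649707, against 20984212 and 27096574 in the other KO libraries. The part of depth in these differences was not tested. Without KO replicate 3, limma called 18 members, against 0.972% of all genes called higher and 0.766% lower. These were Cdk1, Ccna2, Ccnb1, Ccnb2, Ccnf, Plk1, Aurka, Aurkb, Nek2, Cdc20, Ube2c, Pttg1, Kif20a, Prc1, Tpx2, Nusap1, Top2a and Mki67. Without WT replicate 3, which was the lowest WT library for 31 members (40.6% of all genes), it called 11 members, against 4.74% of all genes called higher and 4.95% lower. These were the 5 called with all libraries and Ccnb1, Melk, Ttk, Kif4, Ect2 and Mki67. Melk and Ttk passed the filter on low values there through the KO libraries alone. On the re-estimated reads, edgeR called 10 members (1.65% of all genes higher and 1.4% lower) and DESeq2 called 29 (5.16% higher and 5.39% lower). In none of these fits was a member called lower.

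Other genes of cell division were counted from lists of the same pathways, where 1.35% of all genes tested were called higher and 1.36% lower. Of 37 further tested genes of the kinetochore and passenger complexes, 1 was called higher and 0 lower, with a median log2 fold change of 0.78. That gene was Cenpl, of the inner kinetochore, with 318, 328 and 263 in KO libraries, against 125, 84 and 57 in WT libraries (3.55-fold, limma adjusted p = 0.0281). Of 28 further genes of the spindle and cytokinesis 0 were called in either direction, with a median log2 fold change of 1.30. Of 16 condensin and cohesin genes 1 was called higher and 0 lower, with a median of -0.03. It was Esco2, the acetyltransferase that fixes cohesion in S phase, with 158, 203 and 53 in KO libraries, against 11, 12 and 15 in WT libraries (8.89-fold, limma adjusted p = 0.0249).

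Further lists held factors that act on CDK1 or on transcription in the cell cycle. Of all genes tested, 1.35% were called higher and 1.36% lower. Of 11 CDK1 regulators 1 was called, which fell, and the median log2 fold change was 0.25. This was Wee1, the kinase that holds CDK1 inactive, with 156, 203 and 114 in KO libraries, against 510, 439 and 431 in WT libraries (log2 -1.57, SE 0.25, limma adjusted p = 0.0221), without overlap. Of 17 subunits and inhibitors of the anaphase-promoting complex 0 were called in either direction, with a median log2 fold change of -0.0048. Of 22 genes of the MuvB, MYBL2, E2F and RB families 0 were called either way, with a median of -0.08. Mybl2 itself, which encodes B-MYB, had 40, 26 and 23 in KO libraries, against 29, 38 and 27 in WT libraries. Of 49 tested DNA replication genes 0 were called, and the median was 0.19. Of these 49, 7 had no overlap with KO higher (14.3%, against 13.2% of all genes). In 2 there was no overlap with KO lower, against 12.8% of all genes. The difference between the lists was not tested.

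Inhibitors of the cell cycle were among the genes called higher beside the mitosis genes. Of 13 tested G1 cyclins and CDK inhibitors 2 were called higher and 0 lower, with a median of 0.03 over the list. Cdkn1a, which encodes the CDK inhibitor p21, had 2210, 1443 and 518 in KO libraries, against 70, 21 and 16 in WT libraries (39.7-fold, limma adjusted p = 0.0108). Its KO libraries stood in the same order as those of most mitosis genes, with KO replicate 3 lowest and no overlap with WT. Cdkn2c, which encodes the CDK4 and CDK6 inhibitor p18, had 548, 527 and 410 in KO libraries, against 172, 110 and 76 in WT libraries (4.32-fold, limma adjusted p = 0.0182). Of 30 p53 target genes 2 were called higher and 0 lower, Cdkn1a again and Phlda3, an inhibitor of AKT signalling. Phlda3 had 1411, 1212 and 141 in KO libraries, against 65, 26 and 18 in WT libraries (19.3-fold, limma adjusted p = 0.0462), also with KO replicate 3 far below the other KO libraries. The calls of Cenpl, Esco2, Wee1, Cdkn1a, Cdkn2c and Phlda3 were each lost with at least 1 library left out.

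**Figure D4:**
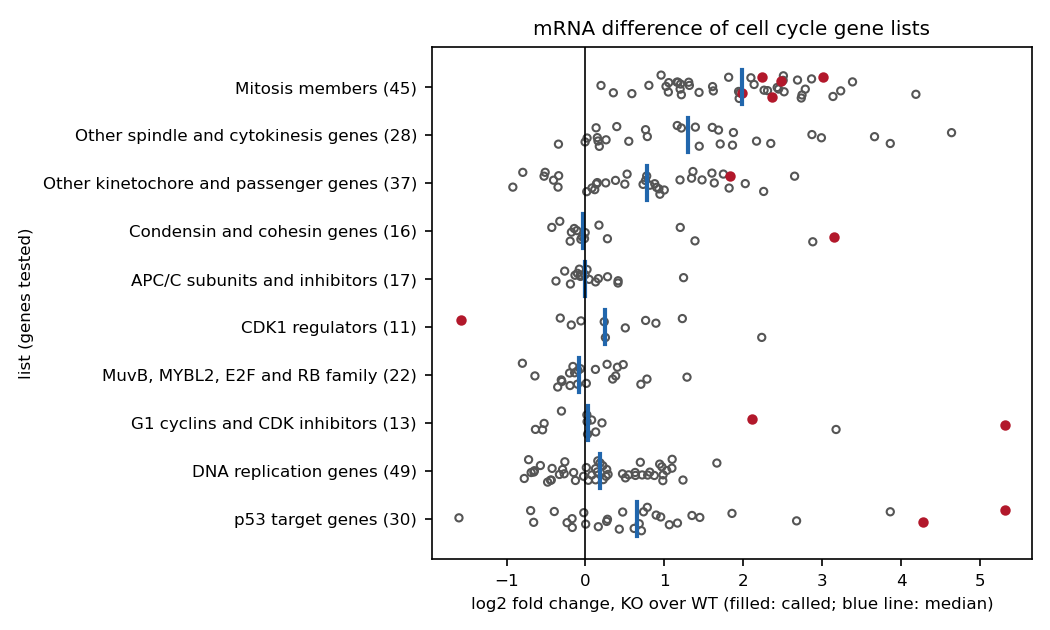
Log2 fold change of KO over WT of every tested gene in the mitosis list and in 9 other lists (1 open circle per gene, filled red where limma called it, blue line at the list's median; vertical scatter has no meaning). The mitosis list has a median of 1.99, the further spindle genes 1.30 and the DNA replication genes 0.19, and Wee1 is the red point below 0.

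Markers of other liver cells moved with the mitosis genes in part. All 16 macrophage and Kupffer cell markers had a fitted difference above 0, with a median log2 fold change of 1.28, and 2 were called, Csf1r and Cd14. Their summed scaled values were 22844, 28893 and 13268 in KO libraries, against 11000, 9233 and 9660 in WT libraries, so that KO replicate 3 was lowest of the KO libraries here too, as it was for 13 of the 16 markers. Stellate cell and fibroblast markers summed to 8921, 8638 and 7287 in KO libraries, against 6066, 4425 and 6271 in WT libraries, with 1 of 12 called (Pdgfrb). Bile duct and progenitor markers summed to 2465, 2195 and 1553 in KO libraries, against 1073, 913 and 1375 in WT libraries, with 1 of 9 tested called (Spp1). Endothelial markers (median 0.25, 0 of 11 called), T, B and NK cell markers (median 0.28, 0 of 14) and erythroid and megakaryocyte markers (median 0.0040, 0 of 9) gave no calls. T, B and NK cell markers summed to 572, 644 and 274 in KO libraries, against 538, 445 and 496 in WT libraries. KO replicate 3 was the lowest KO library for 11 of these 14 markers, with median ratios of 2.97 (KO replicate 1 to KO replicate 3) and 3.09 (KO replicate 2 to KO replicate 3), against 3.50 and 3.45 for the mitosis genes. Neutrophil and monocyte markers, 5 of 10 of which passed the filter, gave 0 calls at a median of 1.05. They summed to 177, 216 and 79 in KO libraries, against 196, 77 and 66 in WT libraries, and KO replicate 3 was the lowest KO library for 5 of the 5. Erythroid and megakaryocyte markers summed to 14821, 17839 and 9921 in KO libraries, against 9651, 12475 and 12307 in WT libraries. Hepatocyte markers gave 0 of 9 calls at a median of -0.13. Which cells held the mitosis mRNAs, and the part of these other cells in the difference between the groups or among the KO libraries, was not tested.

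Nascent RNA asks whether the same genes were also transcribed more, but with 1 library per group and method it allows no test, and intervals cover counting error only. The libraries held 5583983 (KO) and 10833287 (WT) reads in EU, and 2317840 (KO) and 3156055 (WT) reads in Br. Members were thinly covered: of those with at least 20 reads over both libraries, the median member had 72 reads in EU and 40 in Br, against 261 and 142 for all such genes. Ratios below are log2 of KO over WT, each relative to its library total and centred on the median gene, with 95% Clopper-Pearson intervals. Summed over the 45 members, EU reads were 955.4 ppm of the library in KO and 241.8 ppm in WT, a ratio of 3.95, and Br reads 619.1 ppm in KO and 570.0 ppm in WT, a ratio of 1.09. A few genes weighed heavily in these sums: Kif23 held 61.8% of the members' EU reads in KO and 54.4% in WT, and Ccnf 26.8% of their Br reads in KO and 36.0% in WT. Without Kif23 the ratio was 3.31 in EU and 1.18 in Br, without Ccnf 4.28 and 1.24, and without both genes 3.97 and 1.43, settings chosen after the values were seen. The difference between the methods was not tested.

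In EU, 30 members had at least 20 reads, of which 22 were at least 2-fold higher in KO (24.9% of all such genes) and 2 at least 2-fold lower (23.2%). The interval lay above no change for 23 of them (39.5% of genes), below it for 3 (39.5%) and across it for 4. In Br, 34 members had at least 20 reads, of which 11 were at least 2-fold higher (7.49%) and 2 at least 2-fold lower (7.01%). There the interval lay above no change for 14 (19.9%), below it for 3 (20.0%) and across it for 17. Since the read minimum was passed on the sum of both libraries, a scarce gene could pass through the KO library alone. In EU this held for Ccnb1 (21 reads in KO and 0 in WT) and Cdc25c (44 and 0). In Br it held for Bub1b (24 in KO and 0 in WT). Through the WT library alone 2 members passed in EU and 0 in Br. Over the members with at least 20 reads the EU ratio had a median of 2.35 and the Br ratio one of 0.83. With at least 50 reads, the EU median was 2.16 over 18 members, of which 14 had an interval above no change (40.3% of such genes) and 2 below it (39.6%). The Br median was then 0.08 over 14 members, 6 of them above (21.5%) and 3 below (22.2%), so that the higher Br median rested on thinly covered members.

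Of the 26 members with at least 20 reads in both methods, 17 were higher in KO in both (27.2% of all such genes), 4 lower in both (28.7%) and 5 opposite (44.1%). The interval was above no change in both for 9, against 10.3% of such genes: Cdk1, Ccna2, Aurkb, Bub1b, Prc1, Ect2, Top2a, Ncapg and Smc4. Here too a scarce gene could pass the read minimum mainly through the KO library. Cdk1 had 24 EU reads in KO and 12 in WT (log2 1.98, interval 0.92 to 3.11), and 30 Br reads in KO and 21 in WT (0.96, interval 0.11 to 1.84). Prc1 had 199 EU reads in KO and 31 in WT (3.66, interval 3.11 to 4.25), and 50 Br reads in KO and 41 in WT (0.74, interval 0.11 to 1.37). Top2a had 139 EU reads in KO and 5 in WT (5.77, interval 4.52 to 7.42), and 24 Br reads in KO and 12 in WT (1.45, interval 0.39 to 2.58). Ect2 had 395 EU reads in KO and 100 in WT (2.96, interval 2.64 to 3.29), and 25 Br reads in KO and 7 in WT (2.29, interval 1.04 to 3.74). Mki67 had 1 EU read in each library, and 46 Br reads in KO and 15 in WT (2.07, interval 1.20 to 3.01). Cdkn1a had 96 EU reads in KO and 0 in WT, and 469 Br reads in KO and 121 in WT (2.40, interval 2.11 to 2.70).

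Ccnf, the member whose mRNA was called with any library left out, was not higher in nascent RNA. It had 120 EU reads in KO and 257 in WT (log2 -0.12, interval -0.45 to 0.20), and 384 Br reads in KO and 647 in WT (-0.30, interval -0.49 to -0.12). These are the deepest Br counts of any member. The annotation places the miRNA gene Mir5134 on exons of Ccnf and Mir6965 within it. Pttg1 was lower in both methods, with 0 EU reads in KO and 74 in WT, and 30 Br reads in KO and 124 in WT (-1.60, interval -2.22 to -1.01), while its mRNA was higher in KO replicates 1 and 2. Aurka differed between the methods, with 45 EU reads in KO and 20 in WT (2.15, interval 1.36 to 2.98), and 79 Br reads in KO and 116 in WT (-0.11, interval -0.54 to 0.32). Among the 26 members with at least 20 reads in both methods, Kif23 was the 1 whose intervals excluded no change on opposite sides (12.5% of all such genes), with 3299 EU reads in KO and 1426 in WT (2.19), and 73 Br reads in KO and 223 in WT (-1.16). Its EU reads far exceeded those of any other member, although its scaled mRNA value was at most 58.

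**Figure D5:**
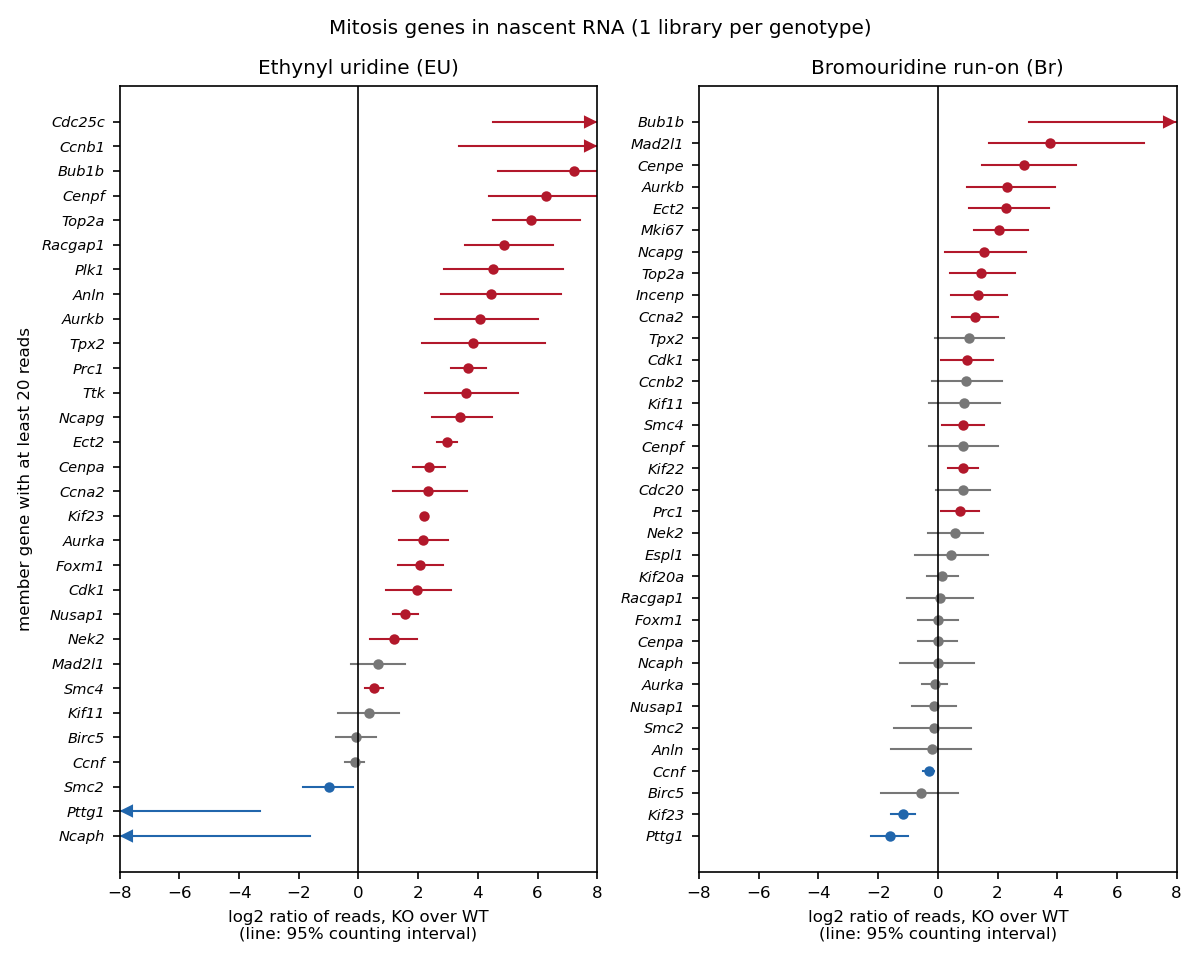
Log2 ratio of nascent reads, KO over WT, for members with at least 20 reads over both libraries in EU (left, 30 genes) and Br (right, 34 genes), with 95% counting intervals; red lies above 0, blue below and grey across it. Arrows mark genes with 0 reads in a library, and the cluster of red in EU is wider than in Br, where Ccnf, Kif23 and Pttg1 lie below 0.

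By role, the EU interval was above no change for 9 of 10 covered genes of the CDK1 and kinase group, 7 of 8 of the motor and cytokinesis group, 3 of 5 of chromosome structure, 2 of 4 of checkpoint and anaphase, and 2 of 3 of the centromere group. Over all genes with at least 20 EU reads it lay above no change for 39.5% and below it for 39.5%. In Br the counts were 3 of 8, 3 of 10, 4 of 6, 2 of 5 and 2 of 5 in the same order, against 19.9% of all genes. These are counts of few genes, and differences between the roles were not tested. Chromosome structure held 2 of the 3 EU intervals below no change, Smc2 with 17 reads in KO and 66 in WT, and Ncaph with 0 in KO and 24 in WT. In Br neither gene differed beyond its interval, with 10 reads in KO and 15 in WT for Smc2, and 11 in KO and 15 in WT for Ncaph.

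Some members share sequence with neighbours in the annotation (GENCODE M21, build GRCm38). Exons of 15 members overlap those of another gene, 12 of them on the opposite strand, and whether reads were counted by strand is not given in the sources used here. Among the called members these are Ccna2, which overlaps Exosc9, and Prc1, which overlaps Rccd1, beside Ccnf and its miRNA gene. Cdc20 overlaps Elovl1, Ube2c overlaps Tnnc2, and Nusap1 overlaps Oip5. Ccnb1, Ccnb2, Kif4 and Kif22 each have a pseudogene of the same name. Values of these genes are uncertain to that extent, whereas Cdk1 and Aurka have no such overlap.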

How the data were processed

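RNA of mouse liver was analysed in 10 libraries, and 24 samples of chromatin or input were not used here. Per the submitters' processing notes, TopHat2, Bowtie2, Cufflinks, DESeq and genome mm9 were used; how genes were counted is not given in the sources used here. For mRNA the unit is a score, since the authors normalized the reads with DESeq and then rounded them. For nascent RNA the deposited values are gene counts, and Br counts, all of them even, were halved. The deposited RPKM table of the nascent libraries, by the authors, served in an alternative.

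The main test, as planned for scaled values, was limma 3.58.1 in R 4.3.3 (trend, robust, two-sided) on log2(scaled value + 1). In its place edgeR had been planned only for raw counts. Fold changes are on the log2(scaled value + 1) scale, which understates those of low genes. edgeR 4.0.16 and DESeq2 1.42.0 ran on reads re-estimated from the rounding step, which are approximate. Tests were adjusted by Benjamini-Hochberg over all 16813 genes. The fit was tested on simulated data. Alternatives were pseudocounts, filters, scaling, array weights, a replicate block and each library left out. Members, role groups and lists were chosen with earlier results of these data known, so none is independent evidence. Genes named with full statistics were the called members, the 3 most abundant per role, called genes of other lists, Cdkn1a and Setd8. For nascent RNA the rule named members with at least 50 reads whose interval excluded no change. Only some of these are given with their nascent values. Further genes given with an SE or p, such as Ccnb1, Kif4 and Cdc25c, were chosen after their values were seen, as were the other values described. Ahsp matched no row, and Cdkn2d none in the mRNA or count tables.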

Additional observations from a re-analysis of the deposited data

How the results depend on the processing

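The direction of the members as a list held in the settings run: the median log2 fold change ran from 1.65 to 2.48 with a library left out, and 0 members were called lower under any setting. The count of called members was not. Against 5, it was 8 with a pseudocount of 10, 13 with no filter, 10 by edgeR, 29 by DESeq2, 42 with array weights and 28 with a replicate block, and 1 to 18 with a library left out (1 without KO replicate 1, KO replicate 2, WT replicate 1 or WT replicate 2). Over all genes DESeq2 called 867 higher and 907 lower, array weights 4250 and 4160, and the replicate block 500 and 514; with a library left out the counts were 13 to 785 higher and 15 to 821 lower. Other cell cycle and p53 lists, with 6 genes called, gave 12 with no filter, 10 by edgeR, 37 by DESeq2, 125 with array weights, 27 with the block and 0 to 19 with a library left out. Cell type markers, with 4 called, gave 7, 18 (DESeq2), 53 (array weights), 12 (block) and 0 to 14. Same-numbered libraries had correlations of 0.41, -0.24 and 0.20 in their deviations, which do not show that the numbers pair the samples. With 3 libraries per group they cannot exclude pairing either. The cause of these changes was not tested. The EU median of 2.35 was 1.89 with 0.5 added to RPKM and 2.16 with at least 50 reads, and the Br median of 0.83 was 0.084 with at least 50 reads. Of 216 values of named genes under other settings, 188 stayed on their side of the threshold, called or not, 27 gained a call and 1 lost it; with a library left out 99 of 144 stayed, 7 gained and 38 lost it, and 0 turned round. In a window of 150 bases before to 50 after the start, a CHR was in 73.0% of members and 12.0% of promoters. Low values limit the members: 12 were under 10 in WT replicate 3.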
